A study of Homo sapiens with 8 samples.

Results

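Heat shock chaperone genes and the subunit genes of the TRiC chaperonin were measured in Nthy-ORI, an immortalised epithelial line from normal human thyroid, with and without thyroid hormone. The 44 genes were found by symbol among the 56832 gene rows of the count files. They comprised 7 HSP70 genes, 3 HSP110 genes, 3 HSP90 genes, 7 HSP40 genes, 3 small heat shock protein genes, 3 BAG genes, 6 genes of HSP90 co-chaperones, 2 genes of the mitochondrial chaperonin, 8 TRiC genes and 2 heat shock factor (HSF) genes. They had been proposed because several of them were much higher with hormone at 6 h. The difference at 6 h is therefore given as a description, with no p-value, and the test stands on the 24 h libraries, which that reason did not use. The genes, lists and tests were still chosen with earlier results of these data known, so the 24 h test is not wholly independent of them.

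The groups were cells given 10 nM T3 (the active thyroid hormone) for 6 h, cells given the NaOH vehicle for 6 h, cells given 10 nM T3 for 24 h and cells given the vehicle for 24 h, with 2 libraries in each. All of them had first spent 24 h without hormone, in phenol-red-free medium with charcoal-stripped serum. The series asks which transcripts the thyroid hormone receptor TR-beta controls and whether that needs SWI/SNF chromatin remodelers. All libraries came from 1 cell line, and nothing in the labels says that the 2 of a group were separate cultures, so a p-value measures the spread between libraries, which may be technical.

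Chaperones hold or refold unfolded proteins. HSP70 proteins bind short stretches of a client and release it in an ATP cycle that HSP40 proteins start and that nucleotide exchange factors of the HSP110 and BAG families complete, while HSP90 and its co-chaperones take over clients such as kinases and steroid receptors. HSF1 drives the inducible genes when unfolded proteins accumulate, by binding inverted repeats of a GAA unit called heat shock elements, whereas TRiC and the mitochondrial chaperonin are barrels that fold newly made proteins also without stress.

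Reads counted in genes came to between 2517983 and 8201606 per library, and reads that had not aligned uniquely, which are left out of gene counts, made up 47.6% to 67.4% of a library's table. Of the thyroid markers, TG and TSHR had no counts in any 6 h library and at most 5 counts at 24 h, and NKX2-1 had at most 2 counts in any library, while PAX8 and FOXE1 were present in every library. Of the 5 epithelial markers, KRT8 and KRT18 had at least 440 counts in every library and EPCAM had 6 to 58. KRT19 had no counts at 6 h and at most 13 at 24 h, and CDH1 had at most 5 counts in any library and 0 in those labelled T3 at 24 h. The 4 fibroblast markers summed to 15.7 to 27.1 CPM, most of it PDGFRB with 40 to 174 counts, endothelial markers to at most 0.678 CPM and immune markers to at most 2.46 CPM. PAX8 had 12 to 33 counts in the 6 h libraries and 504 to 1035 in the 24 h libraries, so the times differed in more than chaperones. KLF9 and HR, established targets of thyroid hormone receptors, check the hormone labels. KLF9 had 37 and 70 counts with T3 at 6 h, against 3 and 2 with vehicle, but 18 and 29 counts in the libraries labelled T3 at 24 h, against 92 and 210 in those labelled vehicle. HR had 320 and 506 counts with T3 at 6 h, against 227 and 143 with vehicle, but 2 and 1 in the libraries labelled T3 at 24 h, against 19 and 26 in those labelled vehicle. Both genes thus go against the labels at 24 h, and every direction at that time refers to the libraries as labelled.

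At 6 h the chaperone genes stood higher with T3 across nearly all classes. Levels are CPM, the count of a gene scaled to a common library total after TMM normalisation, and a gene is called where edgeR's adjusted p, taken over all 14611 genes tested, is under 0.05. All 44 genes passed the filter on low counts. With T3 24 of the 44 were called higher and 0 lower, where 3.78% of all genes tested were called higher and 3.86% lower. Since this contrast chose the genes, nothing is read from that count, and the genes and classes of 6 h are described by their values alone. Upper-quartile scaling gave 18 higher and 0 lower, where 2.32% of all genes were called higher and 4.77% lower. The median log2 fold change of the 44 was 0.50, against -0.02 over all genes tested. Both T3 libraries lay above both vehicle libraries for 37 genes and below them for 2, where 28.9% and 30.8% of all genes did so. A log2 fold change of at least 1 was reached by 9 of the 44 and of -1 or below by 0, against 2.09% and 9.68% of all genes. The count of 24 fell to 8 without the first vehicle library of 6 h and to 15 without the second, where 0.206% and 2.22% of all genes were called higher. It fell to 9 without the first T3 library and to 10 without the second, where 0.271% and 0.381% of all genes were called higher.

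**Figure D1:**
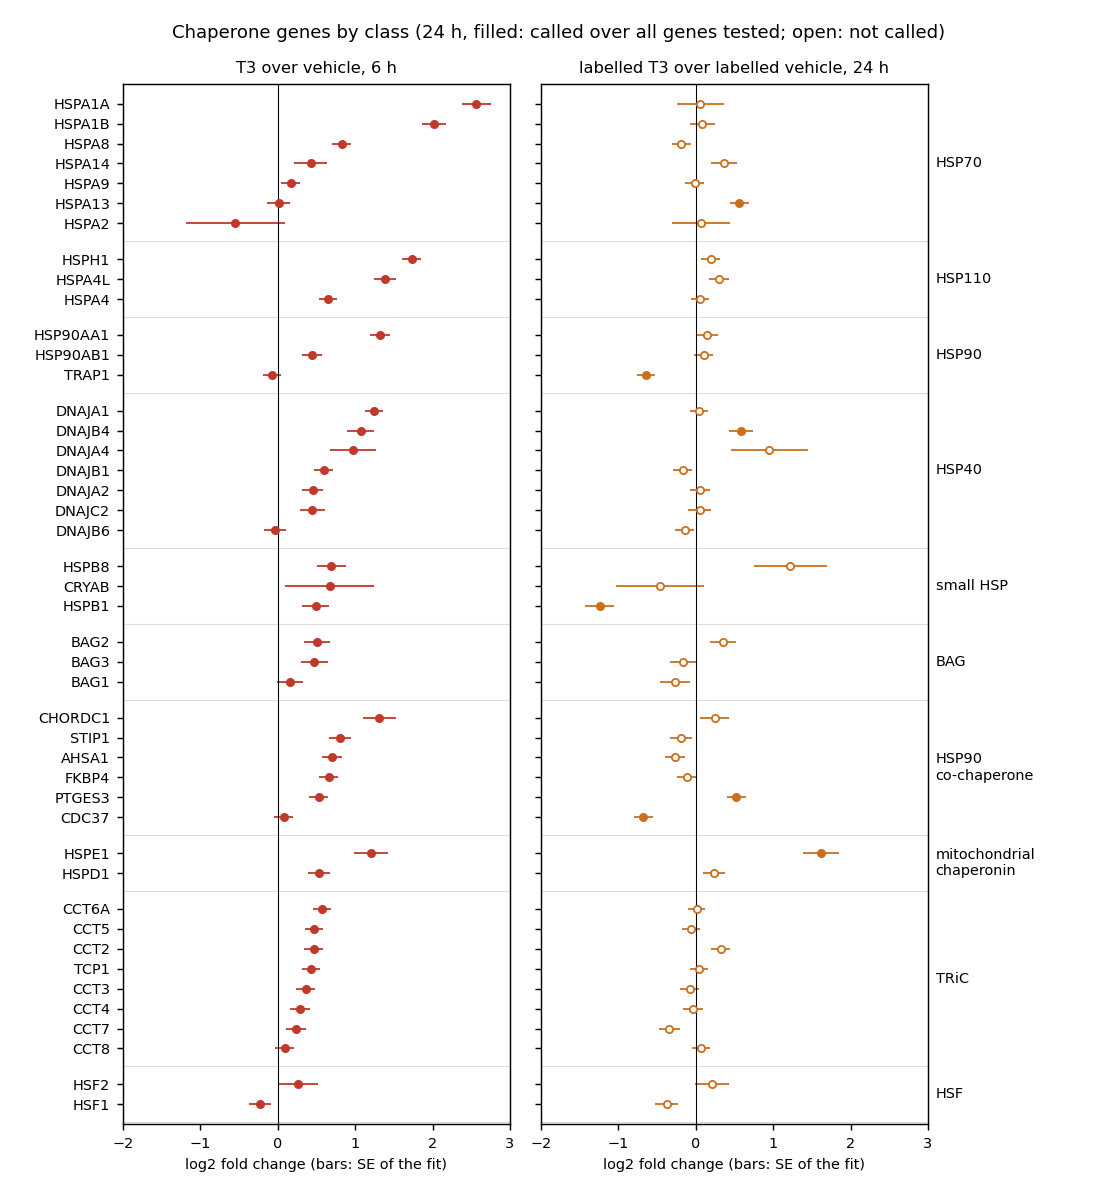
The log2 fold change of each of the 44 genes, T3 over vehicle at 6 h on the left and libraries labelled T3 over libraries labelled vehicle at 24 h on the right, grouped by class, with the standard error (SE) of the fit as a bar. At 24 h filled points are the 7 genes called over all genes tested and open points the others, while the 6 h panel shows the contrast that chose the genes and marks no calls.

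The stress-inducible HSP70 genes, HSPA1A and HSPA1B, differed most. HSPA1A had 476 and 488 CPM with T3 at 6 h, against 91.0 and 70.8 CPM with vehicle, a log2 fold change of 2.57 (SE 0.19). HSPA1B had 319 and 291 CPM with T3, against 79.0 and 70.4 CPM with vehicle, a log2 fold change of 2.02 (SE 0.16). Every T3 library of 6 h lay far above every vehicle library for both genes. At 24 h HSPA1A had 6.05 and 8.10 CPM in the libraries labelled T3, against 3.84 and 9.12 CPM in those labelled vehicle, and HSPA1B had 29.5 and 41.8 CPM, against 33.9 and 33.6 CPM. The 24 h groups overlapped for both genes, with edgeR adjusted p = 0.927 for HSPA1A and 0.779 for HSPA1B.

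HSPA1A (chromosome 6, 31815464 to 31817946, plus strand, GRCh38) and HSPA1B (chromosome 6, 31827735 to 31830255, plus strand) are near-identical neighbours, so reads could be lost between them or assigned to either, and their separate values are uncertain. Summed to 1 gene, their log2 fold change was 2.33 (SE 0.15) at 6 h and 0.09 (SE 0.16) at 24 h. The likeness reaches into the promoters, shown here because both carry the same heat shock element letters. Over 171 aligned bases before the start, 164 were identical (95.9%). The capitals below mark the paired units GAA and TTC at -106 (HSPA1A) and -105 (HSPA1B), counted from the RefSeq start at 0, in sequence from RefSeq on GRCh38.p14. The HSPA1A stretch is chr6:31815293-31815463, plus strand, and the HSPA1B stretch is chr6:31827488-31827734, plus strand.
HSPA1A: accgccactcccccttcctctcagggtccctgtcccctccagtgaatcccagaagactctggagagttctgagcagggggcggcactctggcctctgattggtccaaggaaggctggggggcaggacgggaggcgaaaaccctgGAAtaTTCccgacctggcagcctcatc
HSPA1B: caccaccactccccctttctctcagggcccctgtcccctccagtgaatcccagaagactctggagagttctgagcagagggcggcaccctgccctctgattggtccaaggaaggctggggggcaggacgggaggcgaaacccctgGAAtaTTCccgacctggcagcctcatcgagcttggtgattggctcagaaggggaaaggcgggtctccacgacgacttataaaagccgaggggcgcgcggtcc

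HSPA8, the constitutive HSP70 of the cytosol, had the highest level per kilobase of summed exon of its class in every group. It had 4589 and 4113 CPM with T3 at 6 h, against 2481 and 2435 CPM with vehicle, a log2 fold change of 0.82 (SE 0.13). At 24 h it had 649 and 666 CPM in the libraries labelled T3, against 692 and 804 CPM in those labelled vehicle, with a log2 fold change of -0.19 (edgeR adjusted p = 0.351). The T3 libraries thus lay above vehicle at 6 h and below at 24 h without overlap. Levels of different genes were compared per kilobase of summed exon. On that scale HSPA1A plus HSPA1B came to 0.336 and 0.368 of the HSPA8 level with T3 at 6 h, against 0.133 and 0.112 with vehicle. At 24 h the ratio was 0.106 and 0.144 in the libraries labelled T3, against 0.105 and 0.103 in those labelled vehicle, where the second library of T3 stood above the other 3.

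The other HSP70 genes differed less at 6 h. HSPA9, the mitochondrial HSP70, had a log2 fold change of 0.17 (SE 0.12) and HSPA14, which works at the ribosome, of 0.43 (SE 0.21). HSPA13, an HSP70 of the endoplasmic reticulum and microsomes, had 0.01 (SE 0.14). HSPA2, best known from the testis, rested on 4 to 6 counts in each 6 h library and had -0.55 (SE 0.64). HSPA6, the strictly inducible HSP70 outside the 44 genes, had 2 and 7 counts with T3 and 2 and 0 with vehicle at 6 h and was too low to test.

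All 3 HSP110 genes, whose proteins release ADP from HSP70, had both T3 libraries above both vehicle libraries at 6 h. Of all genes tested 28.9% did so. HSPH1 had 951 and 1024 CPM with T3, against 279 and 318 CPM with vehicle, a log2 fold change of 1.73 (SE 0.13). HSPA4L had 151 and 142 CPM with T3, against 54.6 and 57.7 CPM with vehicle, a log2 fold change of 1.38 (SE 0.14). HSPA4, the constitutive member, had a log2 fold change of 0.65 (SE 0.12). Per kilobase HSPH1 stood at 1.56 and 1.64 of the HSPA4 level with T3, against 0.742 and 0.771 with vehicle. The order of the pair rests on that scale, since by CPM HSPH1 lay above HSPA4 in every 6 h library. At 24 h HSPH1 had 300 and 266 CPM in the libraries labelled T3, against 261 and 234 CPM in those labelled vehicle, and HSPA4L had 92.2 and 104 CPM, against 74.1 and 84.9 CPM. Neither passed the test at 24 h (edgeR adjusted p = 0.314 for HSPH1 and 0.145 for HSPA4L), although their T3 libraries lay above vehicle, and under the correction for GC content and length their log2 fold changes were -0.09 and -0.05. The ratio of HSPH1 to HSPA4 was then 0.430 and 0.364 in the libraries labelled T3, against 0.413 and 0.312 in those labelled vehicle.

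HSPH1 is shown with its upstream sequence because it had the largest difference among genes whose promoter window held no match to the heat shock element letters searched. The stretch is chr13:31162389-31162638, minus strand, GRCh38.p14, from -250 to -1, with no capitals since nothing matched.
HSPH1: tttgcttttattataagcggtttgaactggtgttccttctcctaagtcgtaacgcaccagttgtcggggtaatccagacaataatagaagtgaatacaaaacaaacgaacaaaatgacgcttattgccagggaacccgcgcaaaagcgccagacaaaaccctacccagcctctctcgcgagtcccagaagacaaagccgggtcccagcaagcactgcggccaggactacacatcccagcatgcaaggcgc

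Of the HSP90 genes, the inducible HSP90AA1 differed more than the constitutive HSP90AB1. HSP90AA1 had 2207 and 2236 CPM with T3 at 6 h, against 818 and 963 CPM with vehicle, a log2 fold change of 1.32 (SE 0.13). HSP90AB1 had 2779 and 2438 CPM with T3, against 1995 and 1850 CPM with vehicle, a log2 fold change of 0.44 (SE 0.13). Neither gene overlapped between the 6 h groups. Per kilobase HSP90AA1 stood at 0.451 and 0.521 of the HSP90AB1 level with T3, against 0.233 and 0.296 with vehicle. At 24 h HSP90AA1 had 1451 and 1722 CPM in the libraries labelled T3, against 1387 and 1470 CPM in those labelled vehicle, and HSP90AB1 had 865 and 929 CPM, against 796 and 875 CPM. Both overlapped between the 24 h groups, and the ratio of the pair was 0.952 and 1.05 in the libraries labelled T3, against 0.989 and 0.954 in those labelled vehicle. TRAP1, the HSP90 of mitochondria, had a log2 fold change of -0.07 (SE 0.12) at 6 h.

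Among the HSP40 genes, which stimulate the ATPase of HSP70, the T3 libraries lay above the vehicle libraries for 6 of 7 at 6 h, the exception being DNAJB6. Of all genes tested 28.9% did so, and nothing is read from the count. DNAJA1, with the highest level per kilobase of the class in every group, had 557.0 and 556.8 CPM with T3, against 225 and 245 CPM with vehicle, a log2 fold change of 1.25 (SE 0.12). DNAJB4 had 69.9 and 66.4 CPM with T3, against 29.8 and 35.2 CPM with vehicle, a log2 fold change of 1.07 (SE 0.17). DNAJB1, the main HSP40 partner of inducible HSP70, had 0.59 (SE 0.12), and DNAJA2 had 0.45 (SE 0.13). DNAJA4 had 0.97 (SE 0.30) and the ribosome-associated DNAJC2 0.44 (SE 0.16), and DNAJB6 had -0.04 (SE 0.14). At 24 h DNAJA1 had 331 and 376 CPM in the libraries labelled T3, against 350 and 338 CPM in those labelled vehicle, and the groups overlapped. DNAJA4 rested on 20 and 14 counts in the libraries labelled T3 at 24 h, against 6 and 7 in those labelled vehicle, and was not called (log2 fold change 0.95, SE 0.50, edgeR adjusted p = 0.221).

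**Figure D2:**
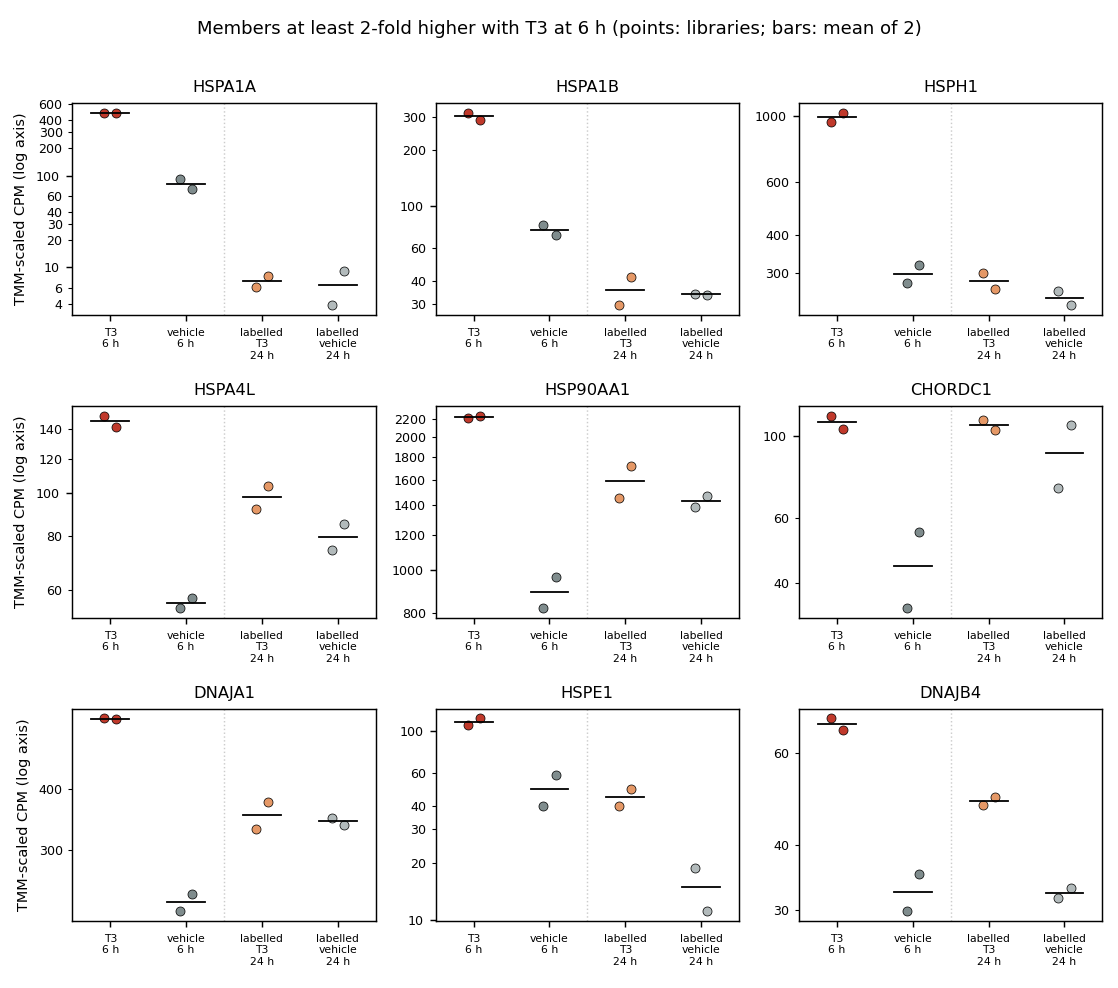
TMM-scaled CPM on a log axis for the 9 genes at least 2-fold higher with T3 at 6 h, with a point for each library, a bar for the mean of the 2 libraries and a dotted line between the times. The 6 h T3 points lie above the 6 h vehicle points for all 9, and at 24 h the libraries labelled T3 lie wholly above those labelled vehicle for HSPH1, HSPA4L, DNAJB4 and HSPE1.

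For all 6 co-chaperones of HSP90 the T3 libraries lay above the vehicle libraries at 6 h, where 28.9% of all genes tested did so. CHORDC1 had 113 and 104 CPM with T3, against 34.1 and 54.8 CPM with vehicle, a log2 fold change of 1.31 (SE 0.21), which was 0.99 without the first vehicle library. STIP1, which bridges HSP70 and HSP90, had a log2 fold change of 0.80 (SE 0.15), AHSA1, an activator of the HSP90 ATPase, 0.71 (SE 0.13), and FKBP4, an immunophilin of steroid receptor complexes, 0.66 (SE 0.13). PTGES3, the p23 co-chaperone, had 714 and 647 CPM with T3, against 486 and 455 CPM with vehicle, a log2 fold change of 0.53 (SE 0.12). CDC37, which brings kinases to HSP90, had 0.07 (SE 0.13). Its groups nearly touched, at 151.3 and 150.9 CPM with T3, against 149.2 and 137.5 CPM with vehicle. At 24 h CHORDC1 had 110 and 104 CPM in the libraries labelled T3, against 72.3 and 107 CPM in those labelled vehicle, and the groups overlapped.

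HSPD1 and HSPE1, the HSP60 and HSP10 of the mitochondrial chaperonin, lie head to head on chromosome 2. HSPD1 had 1933 and 1870 CPM with T3 at 6 h, against 1299 and 1329 CPM with vehicle, a log2 fold change of 0.53 (SE 0.15). HSPE1 had 107.5 and 116 CPM with T3, against 39.8 and 58.5 CPM with vehicle, a log2 fold change of 1.20 (SE 0.22). The T3 libraries of 6 h lay above the vehicle libraries for both genes, as for 28.9% of all genes tested. At 24 h HSPD1 had 797 and 814 CPM in the libraries labelled T3, against 808 and 564 CPM in those labelled vehicle, with overlap (edgeR adjusted p = 0.313).

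Small heat shock proteins bind unfolded clients without ATP. HSPB1 had 268 and 336 CPM with T3 at 6 h, against 212 and 219 CPM with vehicle, a log2 fold change of 0.49 (SE 0.17). HSPB8, which works with BAG3, had 93.4 and 81.5 CPM with T3, against 59.7 and 47.5 CPM with vehicle, a log2 fold change of 0.69 (SE 0.19). CRYAB had 0.67 (SE 0.57) and rested on 10 to 32 counts in the 6 h libraries. At 24 h HSPB8 had 2.95 and 1.85 CPM in the libraries labelled T3, against 0.678 and 1.20 CPM in those labelled vehicle, from 19 and 16 counts against 3 and 8, and the difference was not called (log2 fold change 1.22, SE 0.47, edgeR adjusted p = 0.0923). The BAG genes encode exchange factors of HSP70. At 6 h BAG1 had 127 and 114 CPM with T3, against 118 and 97.4 CPM with vehicle, which overlapped, and BAG2 and BAG3 had log2 fold changes of 0.51 (SE 0.16) and 0.47 (SE 0.17). At 24 h BAG1 had 18.9 and 23.8 CPM in the libraries labelled T3, against 31.0 and 21.7 CPM in those labelled vehicle.

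The TRiC genes, which encode the 8 different subunits of the cytosolic chaperonin that folds actin and tubulin, differed less but all in 1 direction at 6 h. Their log2 fold changes ran from 0.09 (SE 0.12) for CCT8 to 0.57 (SE 0.11) for CCT6A with a median of 0.39. The T3 libraries lay above the vehicle libraries for all 8, where 28.9% of all genes tested did so, and nothing is read from that count. For CCT8 the groups nearly touched, at 242.1 and 239.8 CPM with T3, against 239.6 and 212.8 CPM with vehicle. Under the correction for GC content and length CCT8 had -0.11. CCT5, with the highest mean CPM of the 8 genes over all libraries, had 1524 and 1412 CPM with T3, against 1064 and 1058 CPM with vehicle, a log2 fold change of 0.47 (SE 0.12). Summed over the 8 genes, TRiC came to 5665 and 5247 CPM with T3, against 4320 and 4014 CPM with vehicle, a ratio of means of 1.31. Per kilobase CCT3 led the class at 6 h, at 271 CPM per kilobase with T3 and 211 with vehicle. At 24 h CCT5 had 344 and 377 CPM in the libraries labelled T3, against 367 and 386 CPM in those labelled vehicle. The TRiC sums were then 2218 and 2408 CPM in the libraries labelled T3, against 2407 and 2244 CPM in those labelled vehicle, and 4 of the 8 log2 fold changes were above 0.

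**Figure D3:**
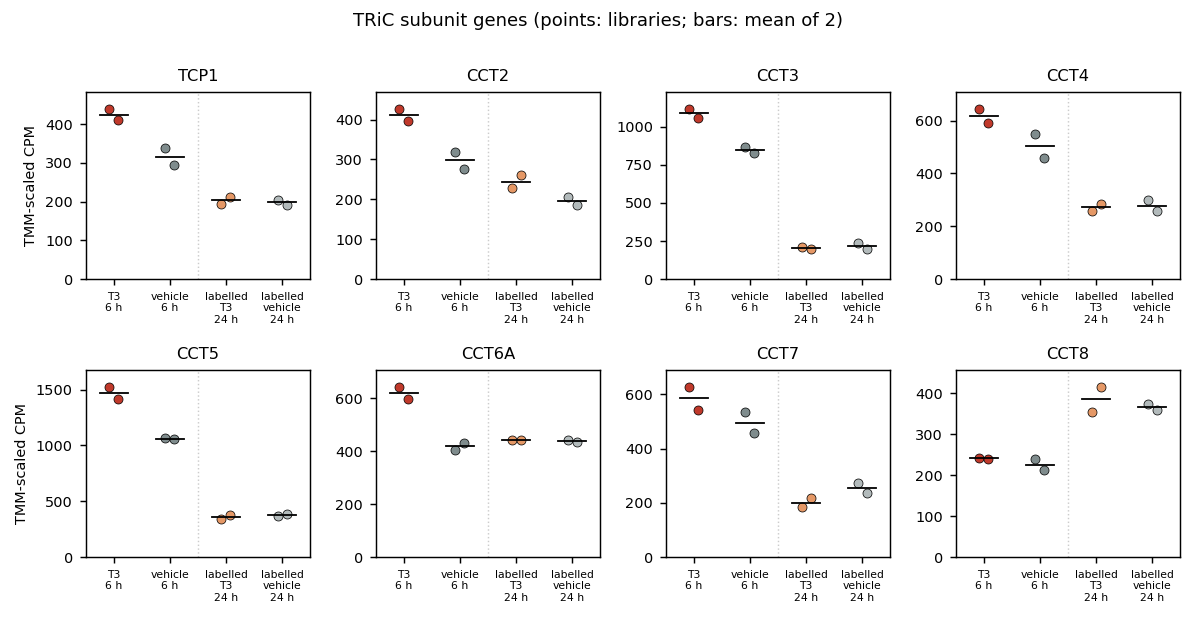
TMM-scaled CPM of the 8 TRiC subunit genes, with a point for each library, a bar for the mean of the 2 libraries and a dotted line between the times. T3 points lie above vehicle points at 6 h in all 8 panels, and at 24 h only CCT2 (higher) and CCT7 (lower) show no overlap.

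The heat shock factor genes did not stand out. HSF1 had 132 and 151 CPM with T3 at 6 h, against 179 and 152 CPM with vehicle, a log2 fold change of -0.23 (SE 0.14), and HSF2 had 0.26 (SE 0.26). At 24 h HSF1 had 48.2 and 44.1 CPM in the libraries labelled T3, against 54.0 and 65.2 CPM in those labelled vehicle (edgeR adjusted p = 0.1). The libraries of HSF1 did not overlap at either time, with the T3 libraries lower. Under the correction for GC content and length its log2 fold change turned to 0.11 at 6 h and 0.25 at 24 h. Transcript levels do not show HSF1 activity, which is set mainly by trimer formation and modification of the protein.

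By class, the median log2 fold change at 6 h was 1.38 for HSP110, 0.87 for the mitochondrial chaperonin, 0.68 for HSP90 co-chaperones, 0.67 for small heat shock proteins and 0.59 for HSP40. It was 0.47 for BAG, 0.44 for HSP90, 0.43 for HSP70, 0.39 for TRiC and 0.02 for the HSF genes. HSP70 ranked low by this median although it held the largest single differences, since HSPA1A, HSPA1B and HSPA8 stood apart from the other 4 genes. Summed over all 44 genes, the level was 25596 and 24144 CPM with T3, against 16079 and 15786 CPM with vehicle, a ratio of means of 1.56. After correction for each library's trend with GC content and gene length, 19 genes were called higher and 0 lower, 17 of them shared with the 24, where 1.27% of all genes were called higher and 2.26% lower.

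Heat shock element letters were searched in RefSeq promoter windows of 300 bases, from 250 before to 50 after each start, on both strands. A window was found for 39 of the 44 genes, and CCT6A, CRYAB, FKBP4, HSPA14 and HSF1 had none. A pair of inverted units (GAANNTTC or TTCNNGAA) stood in a window of 21 of the 39 genes (53.8%), against 16.2% of 27305 genes with a window. The longer run of 3 alternating units, GAA, TTC and GAA with 2 bases between neighbours or the same run on the other strand, contains both pairs and stood in 7 of the 39 (17.9%), against 0.608% of all genes. The 7 were HSPA8, HSP90AA1, HSP90AB1, DNAJA1, DNAJB6, CHORDC1 and HSPD1, and none of the 7 TRiC genes with a window held it. As known targets of HSF1 are in the list by choice, these shares describe the list and carry no test.

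The stretches of 30 bases below hold the 3 alternating units, with GAA and TTC in capitals, and show how their letters and orientation vary from gene to gene. All are from RefSeq on GRCh38.p14 and are written 5′ to 3′ along the gene's strand. They lie at chr11:123062170-123062199 (minus) for HSPA8, chr14:102087111-102087140 (minus) for HSP90AA1, chr6:44247823-44247852 (plus) for HSP90AB1, chr9:33025268-33025297 (plus) for DNAJA1, chr11:90223083-90223112 (minus) for CHORDC1, chr2:197500061-197500090 (minus) for HSPD1 and chr7:157336865-157336894 (plus) for DNAJB6.
HSPA8: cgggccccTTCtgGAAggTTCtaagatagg
HSP90AA1: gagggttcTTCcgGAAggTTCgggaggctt
HSP90AB1: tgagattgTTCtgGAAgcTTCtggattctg
DNAJA1: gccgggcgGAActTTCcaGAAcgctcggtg
CHORDC1: ccgGAAaaTTCgcGAAggTTCctGAAacgc
HSPD1: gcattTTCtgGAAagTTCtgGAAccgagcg
DNAJB6: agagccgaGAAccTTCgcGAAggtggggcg

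CHORDC1 carried the longest run of alternating units among them. HSPA8 and HSP90AB1 each had a second run farther upstream. The HSPD1 run lies inside the annotated span of the oppositely transcribed HSPE1 (chromosome 2, 197499994 to 197503457, plus strand), whose own window held no match. At 6 h the median log2 fold change was 0.69 in the 21 genes with at least a pair of units and 0.40 in the 18 without. It was 0.82 in the 7 genes with 3 units and 0.47 in the 32 without. Since this contrast chose the genes, nothing is read from these medians, and the part of the elements was not tested. Single genes departed from them: DNAJB6, with 3 units, had -0.04, while HSPH1 and HSPE1, with no match in their windows, had 1.73 and 1.20. At 24 h the median log2 fold change was 0.09 in the 21 genes with at least a pair of units and 0.05 in the 18 without. No window of the 39 genes held a direct repeat of AGGTCA spaced by 4 bases, on either strand, the classical thyroid hormone response element. Only these exact letters were searched, and they stood in windows of 7 of the 27305 genes in all (0.0256%). Letters that rare could hardly turn up among 39 genes, so nothing is read from their absence.

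**Figure D4:**
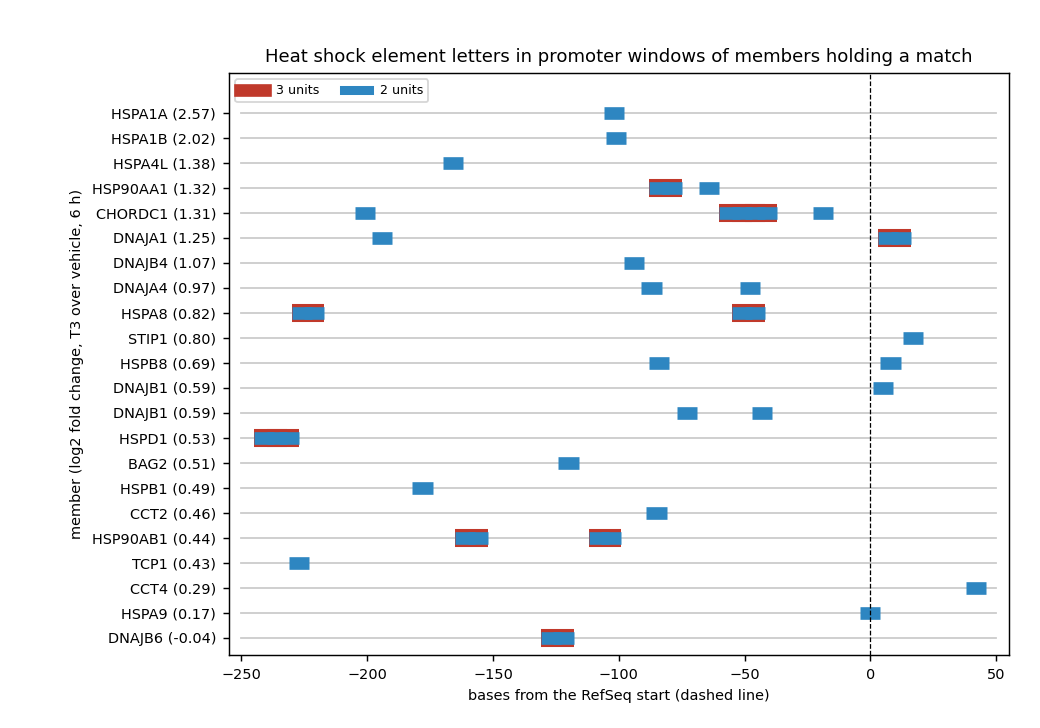
Positions of heat shock element letters in the RefSeq promoter windows of the 21 genes holding a match, in bases from the start (dashed line), ordered by the log2 fold change of T3 over vehicle at 6 h given in brackets, with 1 line per window and DNAJB1 on 2 lines. Red boxes are runs of 3 alternating units and blue boxes are pairs, most of the runs stand between -250 and the start, and DNAJB6 at the bottom holds a run with a log2 fold change of -0.04.

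At 24 h few chaperone genes differed between the libraries labelled T3 and those labelled vehicle, and of the 9 genes at least 2-fold higher at 6 h, HSPE1 and DNAJB4 passed the test. Of the 44 genes 4 were called higher (HSPE1, DNAJB4, HSPA13 and PTGES3) and 3 lower (HSPB1, TRAP1 and CDC37), where 5.58% of all genes tested were called higher and 7.75% lower. These shares of the 44 are near that background. The libraries labelled T3 lay wholly above those labelled vehicle for 11 genes and wholly below for 8, where 26% and 26.7% of all genes did so. HSPE1 and HSPB8 reached a log2 fold change of at least 1 and HSPB1 one of -1 or below, against 2.76% and 6.41% of all genes. Of the 44, 6 lay above at 6 h and below at 24 h (HSPA8, HSPB1, DNAJB1, AHSA1, CDC37 and CCT7), against 3.57% of all genes. Above at both times lay 10, against 12.6%. These shares are no like background, since the 44 were chosen on the 6 h contrast. Among the 4224 tested genes above at 6 h, 522 lay below and 1847 above at 24 h. Of the 37 chaperone genes above at 6 h, 6 and 10 did so, and nothing is read from these counts. As KLF9 and HR go against the labels, the 6 and the 10 were also counted with the 24 h labels exchanged, a setting chosen after the data were seen. The 10 would then be those above at 6 h and below at 24 h (HSPA14, HSPA4L, HSPH1, DNAJA4, DNAJB4, HSPB8, BAG2, PTGES3, HSPE1 and CCT2), and the 6 would lie above at both times. The median log2 fold change of the 44 was 0.05, against -0.01 over all genes tested. Summed over the 44, the level was 10413 and 11123 CPM in the libraries labelled T3, against 10214 and 10398 CPM in those labelled vehicle, a ratio of means of 1.04.

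HSPE1 had 39.8 and 49.3 CPM in the libraries labelled T3 at 24 h, against 18.8 and 11.1 CPM in those labelled vehicle. It rose by 1.62 on the log2 scale (SE 0.23, edgeR adjusted p = 0.000994), with both libraries labelled T3 above both labelled vehicle. The call held in all 15 alternative settings, with log2 fold changes of 1.25 to 1.98 and a highest adjusted p of 0.00972 (edgeR or DESeq2). It was the only 1 of the 44 called with the correction for GC content and length, where 0.524% of all genes were called higher and 0.81% lower. Its partner HSPD1 had a log2 fold change of 0.23 (SE 0.15), so per kilobase the level of HSPD1 was 8.42 times that of HSPE1 in the libraries labelled T3 and 21.4 times in those labelled vehicle. Of the exon bases of HSPE1 23.9% are shared with HSPD1 or the read-through gene HSPE1-MOB4, and 26 annotated pseudogenes are named after it, so reads could be lost or shared and its level is uncertain.

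DNAJB4 had 47.7 and 49.4 CPM in the libraries labelled T3 at 24 h, against 31.6 and 33.0 CPM in those labelled vehicle, and rose by 0.59 on the log2 scale (SE 0.16, edgeR adjusted p = 0.023). HSPA13 had 289.6 and 296 CPM in the libraries labelled T3, against 199 and 197 CPM in those labelled vehicle, and rose by 0.56 (SE 0.12, edgeR adjusted p = 0.0073). PTGES3 had 610.0 and 695 CPM in the libraries labelled T3, against 480 and 428 CPM in those labelled vehicle, and rose by 0.52 (SE 0.12, edgeR adjusted p = 0.0113). None of these 3 groups of libraries overlapped. With the correction for GC content and length none of the 3 was called, at log2 fold changes of 0.06 for DNAJB4, 0.10 for HSPA13 and 0.34 for PTGES3 (edgeR adjusted p = 0.892, 0.702 and 0.153). At 6 h DNAJB4 and PTGES3 also stood higher with T3, the same direction as at 24 h only as the 24 h libraries are labelled, and HSPA13 had a log2 fold change of 0.01. DNAJB4 lost its call in 7 of the 15 settings, and PTGES3 lost it without the second library labelled T3 (log2 fold change 0.42).

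HSPB1, with the highest level per kilobase of the small heat shock protein genes in every group, had 31.3 and 22.2 CPM in the libraries labelled T3 at 24 h, against 51.3 and 73.4 CPM in those labelled vehicle, and fell by 1.24 on the log2 scale (SE 0.19, edgeR adjusted p = 0.00136). TRAP1 had 85.4 and 94.3 CPM in the libraries labelled T3, against 143 and 138 CPM in those labelled vehicle, and fell by 0.64 (SE 0.12, edgeR adjusted p = 0.0034). Of its exon bases 29.3% are shared with DNASE1 or AC006111.2, so its level is uncertain too. CDC37 had 64.3 and 66.4 CPM in the libraries labelled T3, against 99.9 and 109 CPM in those labelled vehicle, and fell by 0.68 (SE 0.12, edgeR adjusted p = 0.00302). All 3 groups of libraries were apart. With the correction for GC content and length none of the 3 was called, and their log2 fold changes were -0.64, -0.34 and -0.23. The longest annotated transcripts of these 3 genes hold 56.0% to 64.3% GC, against 33.1% to 50.2% in the 4 genes that rose. The part of GC content in these differences was not tested.

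**Figure D5:**
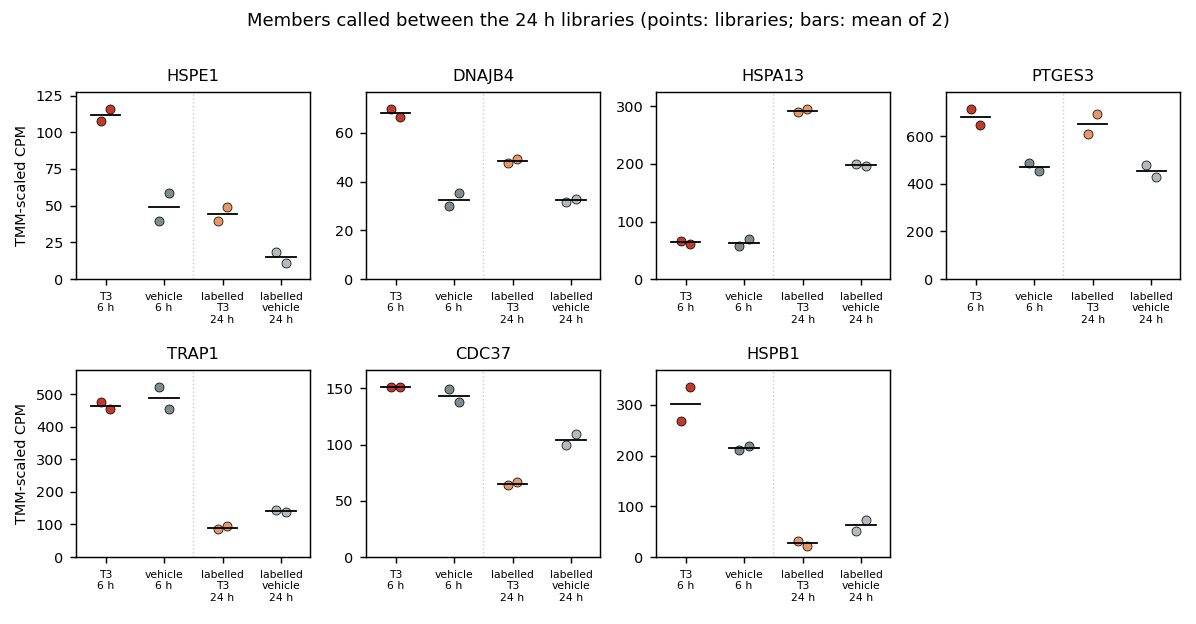
TMM-scaled CPM of the 7 chaperone genes called between the 24 h groups, with a point for each library, a bar for the mean of the 2 libraries and a dotted line between the times. At 24 h the libraries labelled T3 lie above those labelled vehicle for HSPE1, DNAJB4, HSPA13 and PTGES3 and below them for TRAP1, CDC37 and HSPB1.

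Between the times, most chaperone genes stood lower at 24 h than at 6 h. These comparisons share the 6 h libraries with the contrast that chose the genes and are given with no p-value, and nothing is read from the counts. Nothing in the labels says whether the libraries of the times were prepared together, and PAX8 also stood apart between them, so time and batch cannot be told apart. With vehicle, 26 of the 44 were called lower and 11 higher at 24 h, where 32.6% and 31.9% of all genes tested were called. With T3 as labelled, 34 were called lower and 5 higher, where 35.2% and 35.1% of all genes tested were called. Summed over the 44 genes, the level with vehicle was 10214 and 10398 CPM at 24 h, against 16079 and 15786 CPM at 6 h, and with T3 as labelled 10413 and 11123 CPM at 24 h, against 25596 and 24144 CPM at 6 h. In bulk RNA fewer cells of a kind and less RNA per cell cannot be told apart.

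The largest time differences with vehicle lay with HSPB8, DNAJA4 and HSPA1A. HSPB8 averaged 0.937 ± 0.366 CPM with vehicle at 24 h, against 53.6 ± 8.64 CPM at 6 h (SD, n = 2 each), a log2 fold change of -5.74 (SE 0.32). HSPA1A averaged 6.48 ± 3.73 CPM with vehicle at 24 h, against 80.9 ± 14.3 CPM at 6 h (SD, n = 2 each), a log2 fold change of -3.56 (SE 0.25). HSPA1B, its near-identical neighbour, had -1.15 (SE 0.17). Under the correction for GC content and length HSPA1A had -2.56 and HSPA1B -0.24. HSPA1A thus stood far lower at 24 h than at 6 h also without hormone, while HSPA1B differed less, and their separate values are uncertain. DNAJA4 had -3.84 (SE 0.42), and CCT3 had -1.97 (SE 0.13). HSPA2, HSPA13, HSPA14, HSPA4, DNAJB6, DNAJC2 and CCT8 lay wholly above their 6 h libraries at 24 h with vehicle and with T3 as labelled. Their log2 fold changes with vehicle were 0.64 to 1.87. With T3 as labelled HSPA4 and DNAJC2 had 0.21 and 0.25, which turned to -0.24 and -0.20 under the correction for GC content and length. HSP90AA1, DNAJA1, HSPA4L and CCT6A lay wholly above at 24 h with vehicle, at log2 fold changes of 0.68, 0.55, 0.51 and 0.07. They lay wholly below at 24 h with T3 as labelled, at -0.49, -0.66, -0.57 and -0.49. HSPA4L and CCT6A with vehicle turned to -0.42 and -0.17 under the correction for GC content and length.

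By level per kilobase, HSPA8 and HSP90AB1 led the 44 genes with T3 at 6 h, at 897 and 875 CPM per kilobase, and HSP90AB1 and HSPA8 led with vehicle, at 645 and 507. HSPD1 ranked 3 in both. At 24 h HSP90AA1, HSP90AB1 and PTGES3 led in the libraries labelled T3, at 302, 301 and 192 CPM per kilobase, where the first pair did not differ beyond the spread of their libraries. In the libraries labelled vehicle HSP90AB1, HSP90AA1 and HSPD1 led, at 280, 272 and 162. HSPA1A ranked 10 with T3 and 25 with vehicle at 6 h, and 40 of the 44 in both 24 h groups.

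Other genes of chaperone pathways, came to a list of 64 genes, of which 57 were tested. They comprised further HSP70 and HSP40 family members, co-chaperones, prefoldin and TRiC cofactors, mitochondrial proteases and exchange factors, and other HSF1 targets. With T3 at 6 h, 5 were called higher and 0 lower, where 3.78% and 3.86% of all genes were, and the median log2 fold change was 0.18. That median is not set against that of the 44 genes, which were chosen on this contrast. The 4 with the largest differences were TXNDC9, a TRiC cofactor (0.76, SE 0.20), RPAP3, an HSP90 co-chaperone (0.68, SE 0.20), PPID, an immunophilin (0.61, SE 0.17), and DNAJC21, a ribosome biogenesis HSP40 (0.48, SE 0.14). With the correction for GC content and length 1 was called higher and 0 lower at 6 h, where 1.27% and 2.26% of all genes were. That gene was not among the 5, and RPAP3, PPID and DNAJC21 then had 0.31, 0.38 and 0.24. At 24 h 4 were called higher and 11 lower in the libraries labelled T3, where 5.58% and 7.75% of all genes were, with a median of -0.14. CLPP, a mitochondrial protease, fell by 1.11 on the log2 scale (SE 0.23, edgeR adjusted p = 0.006), STUB1, a ubiquitin ligase of HSP70 clients, fell by 0.78 (SE 0.19, edgeR adjusted p = 0.0129), DNAJB12 fell by 0.75 (SE 0.15, edgeR adjusted p = 0.00484), and DNAJB14 rose by 0.82 (SE 0.13, edgeR adjusted p = 0.00156). With the correction for GC content and length 0 were called higher and 2 lower at 24 h, where 0.524% and 0.81% of all genes were. CLPP, STUB1, DNAJB12 and DNAJB14 were not among them, and the log2 fold changes of the last 3 were then -0.13, -0.43 and 0.32.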

How the data were processed

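Libraries of total RNA depleted of ribosomal RNA were counted per gene by the authors, and the deposited values are raw counts, 1 table per library, with no normalisation. The submitters' processing notes name build hg38 and, as tools, CASAVA 1.7, STAR 2.7, HTSeq and DESeq2. The sources used here do not give the annotation or the strand setting of the counting, so overlapping and antisense genes can share reads. Other genes overlap 44.2% of the exon bases of BAG2, 36.5% of those of HSPA1B and 30.1% of those of CCT5. The 5 summary rows of each table were left out of library sizes and tests. Reads inside genes made up 12.9% to 24.4% of a table, and 3 counts correspond to 0.366 to 1.19 CPM, which covers counting error only.

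The test was edgeR's quasi-likelihood F test (robust, edgeR 4.0.16, R 4.3.3) after TMM scaling and filterByExpr by group. A single fit of the 8 libraries had a coefficient for each group (4 residual degrees of freedom, biological coefficient of variation 13.1%), with Benjamini-Hochberg adjustment over 14611 genes and a threshold of 0.05. The groups thus shared 1 estimate of the spread, though their replicates differed unequally. Chi-square per degree of freedom between replicate counts was 27.8 for vehicle at 24 h, against 2.69 to 7.24 in the other groups. Fitted on the 24 h libraries only, 3 of the 44 were called higher and 3 lower, where 2.2% and 2.81% of all genes were. The 44 genes, the lists and the tests were chosen with earlier results of these data known. Values of every library are given for the gene of each class with the highest mean CPM over the libraries and for genes with an absolute log2 fold change of at least 1 at either time, and for the other genes called at 24 h, which were added after their values were seen. Up to 4 pathway genes are named per comparison, those called with the largest absolute log2 fold changes, and KLF9 and HR check the labels. Gene positions, exon lengths and GC content (that of the longest transcript) came from GENCODE 29 on GRCh38, which may not be the annotation counted with. Alternatives were RLE and upper-quartile scaling, DESeq2 1.42.0, no filter, only the libraries compared, a replicate block, a lowess correction (span 0.3) for GC content and length, and leaving out each library. The scripts were tested on simulated data.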

Additional observations from a re-analysis of the deposited data

Results flagged for a closer look

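For 6 of the 44 chaperone genes both T3 libraries lay above both vehicle libraries at 6 h, while at 24 h both libraries labelled T3 lay below both labelled vehicle. Of all genes tested 3.57% did so, a share that is no like background, since the 44 were chosen on the 6 h contrast. Among the 4224 tested genes above at 6 h, 522 lay below at 24 h, beside 6 of the 37 chaperone genes above at 6 h. The difference of responses itself, 24 h minus 6 h, was not tested, because the 6 h contrast chose the genes. On the log2 scale it was -1.73 (SE 0.26) for HSPB1, with 0.49 at 6 h and -1.24 at 24 h, and -1.01 (SE 0.18) for HSPA8, with 0.82 and -0.19. It was -0.97 (SE 0.18) for AHSA1, -0.76 (SE 0.17) for DNAJB1, -0.75 (SE 0.18) for CDC37 and -0.58 (SE 0.19) for CCT7. Of the 6, HSPB1 and CDC37 were called at 24 h. Since KLF9 and HR contradict the hormone labels at 24 h, each of these differences depends on those labels. With the 24 h labels exchanged, a setting chosen after the data were seen, the difference would be 0.75 for HSPB1, -0.64 for HSPA8, -0.44 for AHSA1, -0.42 for DNAJB1, 0.60 for CDC37 and 0.10 for CCT7. None of the 6 would then lie in opposite directions at the 2 times, and 10 other genes of the 44 would lie above at 6 h and below at 24 h.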

How the results depend on the processing

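The number of chaperone genes called higher with T3 at 6 h was 8 to 30 over the 8 fits that left out 1 library, with 0 lower in each, and 18 to 31 in the other settings. The share of all genes called higher moved with it, from 0.206% to 6.36% over the fits that left out 1 library and from 1.27% to 12.1% in the other settings. Exchanging the 24 h hormone labels, chosen after the data were seen, made the number above at 6 h and below at 24 h 10, against 6. At 24 h the correction for GC content and length left 1 higher and 0 lower, and leaving out 1 library gave 2 to 4 higher and 3 to 5 lower, with 2 higher without the second library labelled T3 and 5 lower without the first labelled vehicle. That correction also turned 3 time differences with vehicle, 24 h over 6 h: HSPA4L to -0.42, BAG3 to 0.30 and CDC37 to 0.46, where they were 0.51, -0.44 and -0.46. The cause was not tested. No other log2 fold change of a called gene changed sign. Upper-quartile scaling moved the median of all genes most in T3 as labelled, 24 h over 6 h, to 0.12 on the log2 scale, against 0.02. Replicates shared only a number: deviations of same-numbered libraries correlated at -0.0036 at 6 h and -0.044 at 24 h. With the replicate block 22 were called higher and 0 lower at 6 h, 4 and 3 at 24 h, 10 and 25 over time with vehicle, and 5 and 33 with T3. With 2 libraries a group and down to 2517983 counts in a library, genes such as HSPA2, CRYAB and HSPB8 at 24 h were too shallow to show moderate differences.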
